A study of Mus musculus with 44 samples.

Results

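Mouse embryonic stem (ES) cells that carried Hex at the Rosa26 locus in the unrecombined state were compared with wild-type ES cells. The arrays were chosen by their labels alone: 4 arrays of the unrecombined Hex line and 4 of wild-type cells, 8 of the 44 arrays of the series. All cells belong to CGR8, a feeder-independent mouse ES line, here its clone cgr8.8 per the labels. The wild-type cells carried no insertion that the labels name. For the unrecombined Hex line the labels give the locus and the state, but neither the construct, the recombinase nor a clone number, so the 4 arrays may come from 1 clone. No treatment is named for either group. Other arrays served for a direct comparison: unrecombined cells with HexERTVP2 at the same locus, clone 1 (5 arrays) and clone 2 (3 arrays), without 4-hydroxytamoxifen (4-OHT). Values of recombined Hex cells (4 arrays) are given beside them. The statistical fit covered 40 arrays in 11 groups, so further groups entered it. These were unrecombined HexERTVP2 cells with 4-OHT (3 arrays of each clone) and recombined HexERTVP2 cells. The recombined HexERTVP2 cells were clone 1 (4 arrays without and 4 with 4-OHT) and clone 2 (3 and 3). Chromosome shifts are shown for the arrays of all 11 groups. HexERTVP2 is, from its name, a fusion of Hex with an oestrogen receptor (ERT) part and a VP activation part. RNA was hybridised to Affymetrix MG-U74Av2 arrays, 1 sample per array. Whether separate cultures stand behind the arrays is not in the labels, so each p-value reflects the scatter of the arrays alone, which may be technical.

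Hex (gene symbol Hhex) is a homeodomain protein that represses transcription, partly through Groucho/TLE co-repressors, and marks the anterior endoderm of the early embryo. Rosa26 is a locus with a ubiquitously active promoter. A gene placed there behind a stop sequence usually stays silent until a recombinase removes that sequence. Whether the construct used here holds one is not in the labels. ES cells are held in the naive pluripotent state by Pou5f1, Sox2, Nanog and their partners under LIF signalling. The comparison asks how the unrecombined Hex line differs from wild-type cells. Whether the recombined Hex cells descend from it is not in the labels.

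Levels below are log2 of the deposited RMA intensity, and values on 4 arrays follow the array numbers 1 to 4. Array 2 of unrecombined Hex stood apart from the rest. Its log2 intensities had an SD of 1.60, against 1.90 to 1.97 on the other 7 arrays of the comparison. Its Pearson correlation with them across probe sets was 0.848 to 0.873, while they correlated at 0.987 to 0.998 among themselves. Its slope on the mean of arrays 1, 3 and 4 was 0.72: the brightest quartile of probe sets read low on it, by a median of −1.06, and the dimmest read high, by 0.39. The log2 ratio of 3′ to 5′ β-actin signal, a sign of RNA and labelling quality, was 2.24 on it, against 1.14 to 1.30 on arrays 1, 3 and 4 and 0.85 to 1.55 in wild type. Array 2 was not the highest: over the 40 arrays of the fit the ratio ran from 0.56 to 2.34. The array at 2.34, array 3 of recombined HexERTVP2 clone 1 without 4-OHT, had an SD of 1.87. The group difference in the β-actin ratio was 0.28 with array 2 and 0.03 without it, and the part of this ratio in the results was not tested. Each pair of differences below is log2 unrecombined Hex minus wild type, first with array 2 and then without it. A gene is said to have risen or fallen only where both fits passed (limma, Benjamini-Hochberg adjusted p under 0.05) with the same sign.

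Defining ES cell genes were present in both groups. Of 8 markers of ES cells, 7 lay above the median level in wild type, and Nanog was the 1 marker of these 8 that fell. Their summed linear intensity ranged from 13300 to 14690 on unrecombined Hex arrays 1, 3 and 4 and from 13450 to 14260 in wild type, with 6291 on array 2. Summed markers of fibroblasts and feeder cells ranged from 985.6 to 1030 without array 2 and from 946.7 to 1085 in wild type (2532 on array 2), and those of primitive and visceral endoderm from 1052 to 1057 and from 995.7 to 1067 (1456 on array 2). In bulk RNA of this kind, fewer cells of a type and less RNA per cell cannot be told apart.

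Of 12422 probe sets, 599 (4.82%) passed with all arrays, 94 higher (0.757%) and 505 lower (4.07%) in unrecombined Hex. Without array 2, 451 (3.63%) passed, 145 higher (1.17%) and 306 lower (2.46%). Both fits called 317 (2.55%), 54 higher (0.435%) and 263 lower (2.12%). On 296 of these the arrays of the groups did not overlap, against 1207 (9.72%) of all probe sets. Lack of overlap was thus the usual case among called probe sets. The 15 largest rises and 15 largest falls named below were picked among probe sets without overlap, so it is no further support for them. The rule of both fits kept 54 of the 145 probe sets called higher without array 2 and 263 of the 306 called lower. It thus dropped a larger share of rises, and counts of rises and falls below carry this limit. With 1 probe set per gene, 242 of 8251 genes (2.93%) changed, 36 higher (0.436%) and 206 lower (2.5%). Gene lists below are set against these shares. The lists and their members were chosen with earlier results of these data known, so their counts are descriptions with no test. Single arrays moved the count of 599: it was 1302 without array 1 of unrecombined Hex, 1595 without array 3, 378 without wild-type array 2 and 383 without wild-type array 4. When only these 8 arrays were fitted, 14 passed with array 2 and 797 without it, and 48 of the 57 genes named here that passed with all arrays missed the threshold in the first of these.

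**Figure D1:**
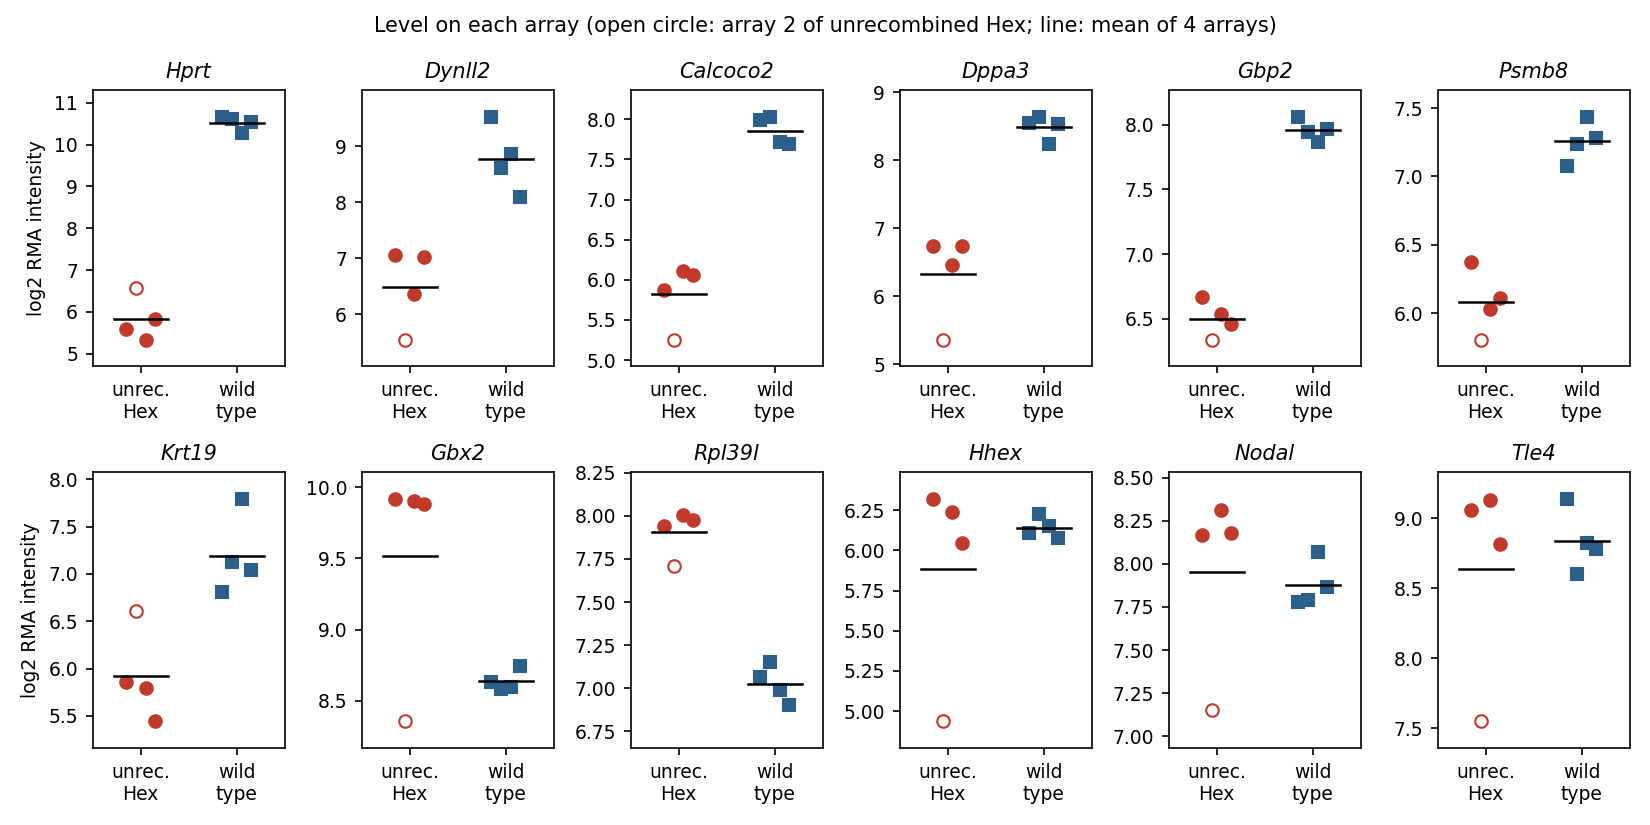
Levels of 12 genes on each of the 8 arrays (log2 RMA intensity, vertical axes differ between panels); points are arrays of unrecombined Hex or wild type, the open circle is array 2 and the line the mean of 4 arrays. Hprt, Dynll2, Calcoco2, Dppa3, Gbp2, Psmb8 and Krt19 were lower and Rpl39l higher without overlap, Gbx2 was higher on 3 of 4 arrays, and Hhex, Nodal and Tle4 overlapped.

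Hhex, Tle4 and Nodal showed no called difference between unrecombined Hex and wild type. Hhex read 6.32, 4.94, 6.24 and 6.05 in unrecombined Hex and 6.11, 6.23, 6.15 and 6.08 in wild type. The groups overlapped, with array 2 far below the rest, and the difference was −0.26 with array 2 (SE 0.16, limma adjusted p = 0.274) and 0.06 without it (95% interval −0.11 to 0.23). The sources used here do not state whether this probe set would also read the inserted gene. Tle4, a Groucho-related co-repressor, read 9.06, 7.55, 9.13 and 8.81 against 9.14, 8.60, 8.83 and 8.78, and its difference was −0.20 and 0.16 (interval −0.34 to 0.67 without array 2). Nodal, a TGF-β family ligand, read 8.17, 7.15, 8.31 and 8.18 against 7.78, 7.79, 8.07 and 7.86. Without array 2 the Nodal arrays did not overlap, but the difference of 0.34 (SE 0.15, interval 0.03 to 0.65) did not pass (limma adjusted p = 0.344), and with array 2 it was 0.08. With arrays weighted by quality, Nodal passed in the fit with array 2 (0.37, limma adjusted p = 0.00635), while Hhex and Tle4 did not.

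The Rosa26 transcript set the unrecombined Hex line apart from the other targeted lines. Gt(ROSA)26Sor, the noncoding transcript that starts at the Rosa26 promoter, read 5.29, 4.83, 4.85 and 5.31 in unrecombined Hex and 5.55, 5.44, 5.14 and 5.32 in wild type. The groups overlapped, and the difference of −0.29 with array 2 (limma adjusted p = 0.17) and −0.21 without it (interval −0.49 to 0.06) did not pass. The unrecombined HexERTVP2 clones read 4.11 to 4.81 in clone 1 and 4.20 to 4.34 in clone 2. Compared with them directly, unrecombined Hex was higher by 0.72 with array 2 (limma adjusted p = 9.52e-05) and by 0.80 without it (adjusted p = 2.56e-05). Recombined Hex cells read 3.95 to 4.24. These levels lie below the array median and are not shown to exceed background.

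Several genes next to Rosa26 on chromosome 6 were lower than in wild type. The order of genes was taken from the RefSeq table of GRCm38.p6, and the window of 15 measured genes on each side was chosen after the values were seen. Thumpd3, which encodes a tRNA methyltransferase and is the nearest measured gene on one side, read 9.60, 8.35, 9.40 and 9.42 in unrecombined Hex and 10.37, 10.46, 10.28 and 10.36 in wild type. It fell by 1.17 with array 2 (limma adjusted p = 3.15e-05) and by 0.89 without it (SE 0.13). Jagn1, an endoplasmic reticulum protein, read 8.37, 6.98, 8.42 and 8.28 against 9.30, 9.32, 9.39 and 9.17. Its fall was 1.29 with array 2 and 0.94 without it (limma adjusted p = 8.75e-05), and Emc3, a subunit of a membrane protein insertase, fell by 0.80 and 0.59. None of these 3 genes overlapped between the groups.

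Other neighbours lay in the same direction and passed with array 2 only. Brk1, an actin regulator, differed by −0.77 and −0.42, Sec13, a coat protein, by −0.81 and −0.497, Tamm41, a mitochondrial lipid enzyme, by −0.71 and −0.41 and Mtmr14, a phosphoinositide phosphatase, by −0.55 and −0.37. Of the 30 neighbours, 1 of 15 before and 2 of 15 after Rosa26 fell and 1 rose (Foxp1), against 14 lower and 1 higher of 482 chromosome 6 genes. The other targeted lines, set against the same wild-type arrays, had low neighbours too. Thumpd3 stood at −0.89 and −1.23 in HexERTVP2 clones 1 and 2 without 4-OHT and at −1 in recombined Hex, and Jagn1 at −0.75, −1.25 and −0.95. Compared directly with the HexERTVP2 clones, unrecombined Hex differed by −0.11 in Thumpd3 with array 2 and by 0.17 without it (interval −0.07 to 0.41), and by −0.29 and 0.05 in Jagn1 (interval −0.22 to 0.33 without array 2).

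**Figure D2:**
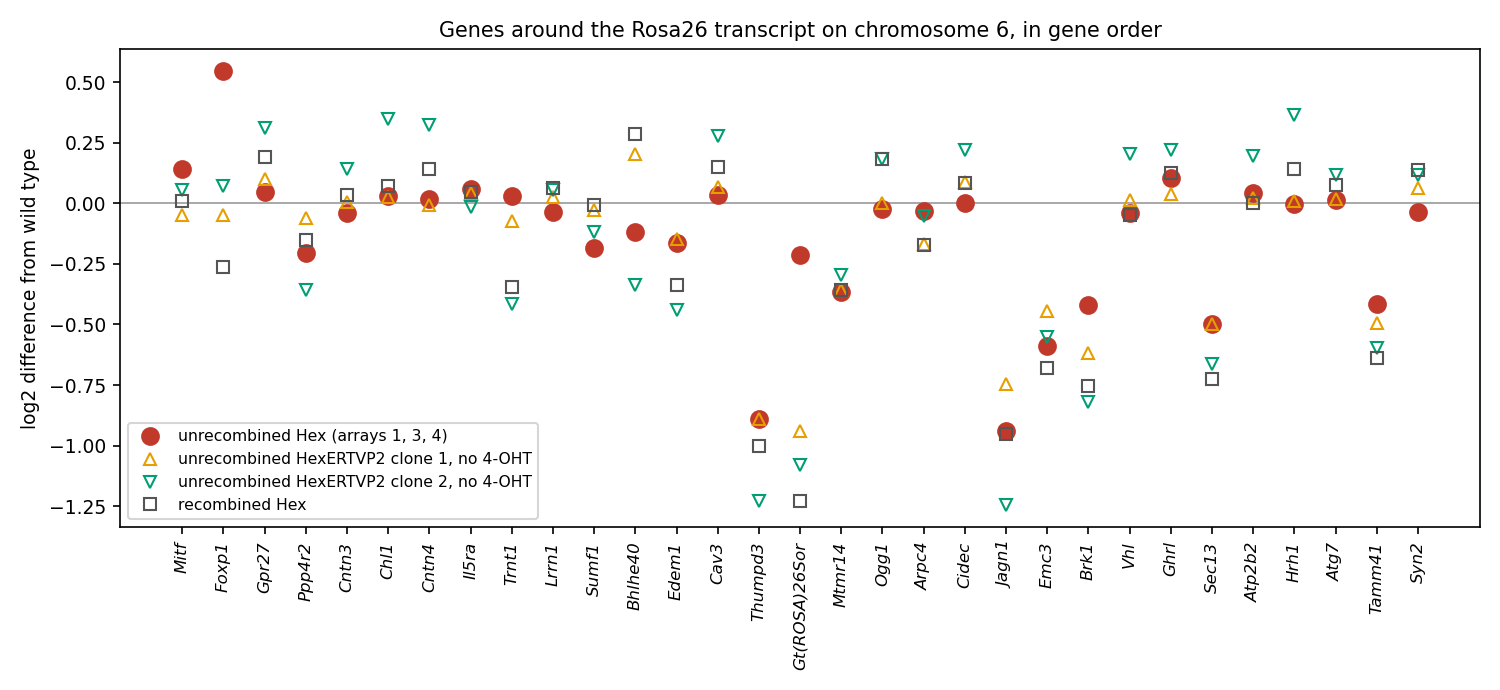
Log2 difference from wild type (vertical axis) for Rosa26 and 15 measured genes on each side on chromosome 6, in gene order (horizontal axis), in unrecombined Hex without array 2 (red circles), unrecombined HexERTVP2 clones without 4-OHT (triangles) and recombined Hex (squares). Thumpd3 and Jagn1 stand at −0.89 and −0.94 in unrecombined Hex with the other lines also low, while Gt(ROSA)26Sor stands at −0.21 in unrecombined Hex and at −0.94, −1.08 and −1.23 in the other lines shown.

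The largest fall was in Hprt, the X-linked purine salvage enzyme that also serves as a selectable marker in ES cells. Hprt read 5.60, 6.59, 5.34 and 5.84 in unrecombined Hex and 10.66, 10.61, 10.27 and 10.53 in wild type. The unrecombined mean was 5.84 ± 0.54 and the wild-type mean 10.52 ± 0.17 (SD, n = 4 each), with no overlap. The fall was 4.68 with array 2 (25.6-fold, SE 0.15, limma adjusted p = 4.17e-22) and 4.93 without it (30.4-fold, adjusted p = 5.04e-27). The lower level is below 6.775, the median level of all probe sets, and is not shown to exceed background. These folds, and those of other genes that read as low, may therefore understate the change. Recombined Hex cells read 5.58 to 5.72, while HexERTVP2 clones 1 and 2 without 4-OHT read 10.35 to 10.65 and 10.35 to 10.45. Low Hprt was thus seen in unrecombined and recombined Hex cells and not in those clones. Unrecombined Hex differed from the clones by −4.62 and −4.87 (SE 0.10, limma adjusted p = 2.06e-28 without array 2).

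Genes beside Hprt and in its pathway mostly stayed near wild type. Its measured neighbours Gpc4 and Plac1 differed by 0.03 and 0.04 without array 2. Gpc3, a glypican beside it, differed by −0.30 and −0.48 and passed without array 2 only (limma adjusted p = 0.0053). Fhl1, a LIM-domain protein 3 measured genes away, fell by 0.58 and 0.58. Of 13 measured genes of purine salvage and synthesis 1 fell, Hprt, and 0 rose, against 2.5% and 0.436% of all genes. Prps2, which makes the ribose phosphate donor, differed by 0.21 and 0.40 and passed without array 2 only. Aprt, the adenine counterpart of Hprt, differed by 0.02 without array 2 (interval −0.32 to 0.36).

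Of 259 measured X-linked genes 12 fell (4.63%) and 0 rose, against 2.5% and 0.436% of all genes, a grouping made after the values were seen. Beside Hprt and Fhl1 these were Pls3, an actin bundler (1.32 and 1.07), Amot, a junction protein (0.88 and 0.89), Rhox5, a homeobox gene sensitive to DNA methylation (1.19 and 0.83), Fmr1nb (1.29 and 0.80), Sh3bgrl (1.11 and 0.74), Clcn5, a chloride transporter (0.54 and 0.5), Hmgn5, a nucleosome-binding protein (0.54 and 0.46), Akap17b (0.44 and 0.41), Tro (0.42 and 0.37) and Mpp1 (0.37 and 0.30).

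Falls gathered on chromosome 11. Among genes above the median level of all probe sets (6.775), 55 of 475 on chromosome 11 fell (11.6%) and 0 rose, against 107 lower of 4372 elsewhere (2.45%). Over all levels, 63 of 705 fell and 1 rose, Prkca. The median difference of the 475 genes was −0.31 with array 2 and −0.18 without it, against −0.11 and 0.03 for the genes of all other chromosomes. Without array 2, 77.1% of them were below 0, against 41.4% elsewhere. Chromosomes were examined after the gene values were seen, so these shares are descriptions with no test.

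By single arrays, the shift was seen on arrays 1, 3 and 4 of unrecombined Hex, while array 2 stood within the wild-type range. The median shift of chromosome 11 genes, relative to all mapped genes, was −0.14, −0.13 and −0.16 on arrays 1, 3 and 4 of unrecombined Hex and −0.0079 on array 2, against −0.0099 to 0.048 in wild type. Recombined Hex arrays ranged from −0.003 to 0.048, and the lowest array of any other group read −0.0665, in HexERTVP2 clone 2 with 4-OHT. In 12 successive blocks of 35 to 40 genes, every block had a negative median without array 2, from −0.27 to −0.06, while the blocks of recombined Hex ranged from −0.13 to 0.09 and those of HexERTVP2 clone 1 without 4-OHT from 0 to 0.09. Low blocks were not particular to unrecombined Hex: those of HexERTVP2 clone 2 without 4-OHT ranged from −0.34 to 0.13, its lowest below any of unrecombined Hex. Chromosome 8 came next, with a median of −0.07 and 70.6% of 262 genes below 0 without array 2, of which 8 fell (3.05%). Its shift averaged −0.11 on the unrecombined Hex arrays, −0.006 in wild type, −0.11 in HexERTVP2 clone 1 without 4-OHT, 0.09 in clone 2 and 0.10 in recombined Hex.

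**Figure D3:**
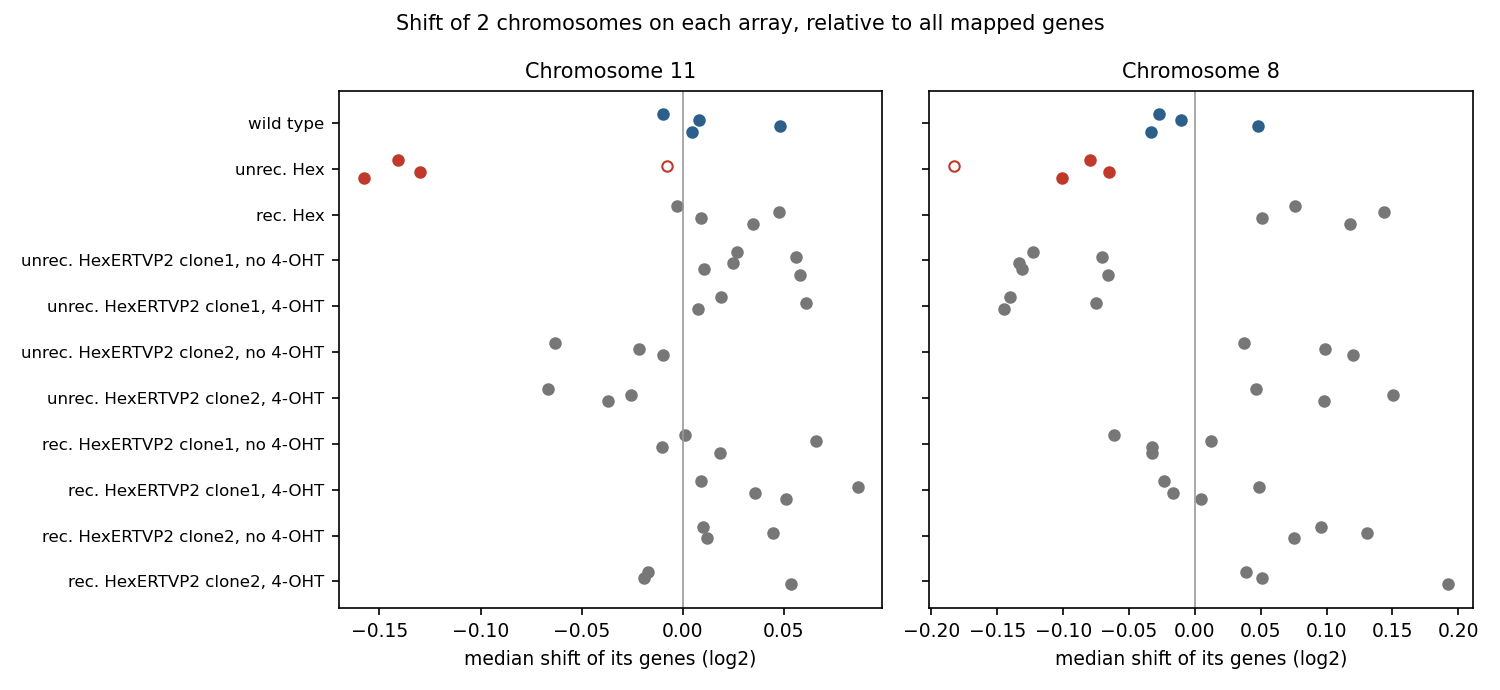
Median shift of the genes of chromosome 11 and of chromosome 8 on each array, in log2 relative to all mapped genes, for the 11 groups; each point is 1 array and the open circle is array 2 of unrecombined Hex. On chromosome 11, arrays 1, 3 and 4 of unrecombined Hex lie between −0.16 and −0.13, below every other array.

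**Figure D4:**
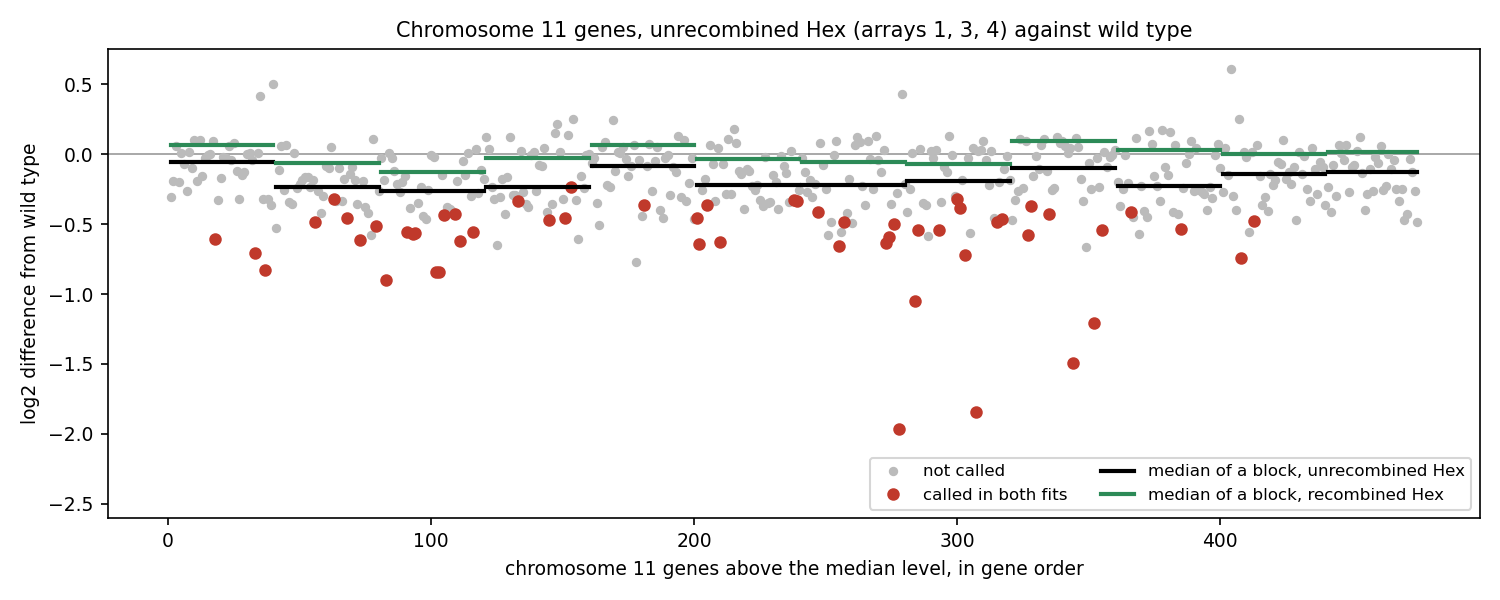
Log2 difference from wild type without array 2 (vertical axis) for the 475 chromosome 11 genes above the median level, in gene order (horizontal axis); red points were called in both fits and lines give the median of each block of genes in unrecombined Hex (black) and recombined Hex (green). Called genes are spread along the order, and all 12 black lines lie below 0.

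Among the 15 largest falls, 4 lay on chromosome 11. Dynll2, a dynein light chain, read 7.05, 5.54, 6.36 and 7.01 against 9.52, 8.62, 8.86 and 8.10. The groups did not overlap, though the wild-type arrays were spread widely, and it fell by 2.28 with array 2 and by 1.96 without it (SE 0.46, limma adjusted p = 0.00747). Its other probe set fell by 0.80 and 0.74. Calcoco2, an autophagy receptor, read 5.87, 5.25, 6.11 and 6.05 against 7.995, 8.03, 7.71 and 7.69. Its fall of 2.03 and 1.85 (SE 0.13, limma adjusted p = 3.2e-12 without array 2) left no overlap. Dnajc7, an Hsp70 and Hsp90 co-chaperone, read 9.57, 7.39, 9.47 and 9.44 against 10.90, 10.52, 10.72 and 10.65, a fall of 1.73 and 1.21. Array 2 was the lowest array in these 3 genes.

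Further falls on chromosome 11, named after their values were seen, covered several functions. Sqstm1 (p62), a receptor for ubiquitinated cargo in autophagy, read 8.43, 8.41, 8.66 and 8.46 against 9.44, 9.48, 9.32 and 9.42, a fall of 0.93 and 0.90 (limma adjusted p = 1.66e-08 without array 2). Becn1, a core autophagy factor, fell by 0.77 and 0.41, and Vmp1, needed for autophagosome formation, by 1.07 and 0.59. Other autophagy-related genes of the chromosome were not called in both fits: Gabarap stood at −0.81 and −0.44, Nbr1 at −0.70 and −0.45 and Wdr45b at −0.72 and −0.49. Also lower were Tom1l1, an endosomal adaptor (1.57 and 1.05), Rad50, a DNA break repair protein (0.97 and 0.84), Ddc, a decarboxylase of dopamine synthesis (1.11 and 0.83), Prkar1a, a regulatory subunit of protein kinase A (1.17 and 0.74), and Igf2bp1, an mRNA-binding protein (1.002 and 0.72). Stat3, also on this chromosome, differed by 0.04 and −0.02 (interval −0.22 to 0.17 without array 2). Prkca, protein kinase C alpha, rose by 0.42 and 0.44.

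Interferon-induced and antigen presentation genes were lower in unrecombined Hex. Interferons switch these genes on through STAT and IRF factors, and they include guanylate-binding proteins (Gbp), immunity-related GTPases, the immunoproteasome subunits Psmb8, Psmb9 and Psmb10, peptide transporters and class I molecules. Of 22 measured members 10 fell and 0 rose, against 2.5% and 0.436% of all genes, in a list chosen with earlier results known. The median difference was −0.32 with array 2 and −0.36 without it, against 0.003 and 0.02 over all mapped genes. Promoters of 5 members that fell are printed because they hold the motifs of the factors named above. The windows run from 250 bases before to 50 after the RefSeq start on GRCm38.p6, all on the plus strand. Gbp2 lies at chr3:142620413-142620712, Gbp2b at chr3:142594597-142594896, B2m at chr2:122147437-122147736, Irf1 at chr11:53769764-53770063 and Psmb8 at chr17:34197945-34198244. Capitals mark GAAA and GAAA with any 2 bases (NN) between them (the core of the interferon-stimulated response element, ISRE) or TTCNNNGAA (the gamma-activated site, GAS), each searched on both strands.
Gbp2: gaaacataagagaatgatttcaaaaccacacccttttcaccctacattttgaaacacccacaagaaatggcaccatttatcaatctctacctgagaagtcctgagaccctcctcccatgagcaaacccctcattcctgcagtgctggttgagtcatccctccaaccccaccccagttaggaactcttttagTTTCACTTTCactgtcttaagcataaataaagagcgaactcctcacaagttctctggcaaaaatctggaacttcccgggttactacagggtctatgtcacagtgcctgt
Gbp2b: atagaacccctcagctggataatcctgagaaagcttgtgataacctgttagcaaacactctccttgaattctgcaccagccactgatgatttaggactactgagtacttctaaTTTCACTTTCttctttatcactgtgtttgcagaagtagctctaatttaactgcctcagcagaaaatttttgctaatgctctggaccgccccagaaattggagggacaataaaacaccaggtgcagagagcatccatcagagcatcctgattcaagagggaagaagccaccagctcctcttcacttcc
B2m: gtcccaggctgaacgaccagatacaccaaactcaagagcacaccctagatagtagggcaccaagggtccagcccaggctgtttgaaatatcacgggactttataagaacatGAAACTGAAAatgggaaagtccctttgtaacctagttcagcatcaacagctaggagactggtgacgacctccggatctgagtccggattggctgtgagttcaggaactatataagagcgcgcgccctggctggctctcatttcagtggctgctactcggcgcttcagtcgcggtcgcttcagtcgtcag
Irf1: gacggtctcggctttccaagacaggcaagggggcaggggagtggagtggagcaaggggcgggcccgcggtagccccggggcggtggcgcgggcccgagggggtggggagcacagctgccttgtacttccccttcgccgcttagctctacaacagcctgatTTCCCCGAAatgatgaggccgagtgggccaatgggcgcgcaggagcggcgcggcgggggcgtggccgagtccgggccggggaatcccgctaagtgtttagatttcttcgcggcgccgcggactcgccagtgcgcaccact
Psmb8: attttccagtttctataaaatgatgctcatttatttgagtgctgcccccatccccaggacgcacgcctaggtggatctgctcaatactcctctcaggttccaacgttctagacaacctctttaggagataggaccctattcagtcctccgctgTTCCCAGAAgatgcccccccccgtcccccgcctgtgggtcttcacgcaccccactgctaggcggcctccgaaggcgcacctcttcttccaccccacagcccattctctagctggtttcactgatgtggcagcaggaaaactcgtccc
An ISRE match lies 59 bases before the start in Gbp2, 137 in Gbp2b and 139 in B2m, and a GAS match 90 bases before it in Irf1 and 97 in Psmb8. The matches of Gbp2 and Gbp2b are on the opposite strand, so the capitals there show the reverse complement, and another RefSeq start of Irf1 had no match. The ISRE core was found in 11 of 20 list members with a promoter entry (55%) and in 6 of the 10 that fell, against 3.44% of 32851 promoter windows and 3.89% of 6576 genes measured on the array. The GAS motif was found in 4 of 20 members (20%) and in 2 of the 10, against 8.3% of windows and 8.5% of measured genes. A match describes the letters of the window and does not show that a factor binds there.

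Gbp2 read 6.67, 6.34, 6.54 and 6.46 in unrecombined Hex and 8.06, 7.94, 7.87 and 7.96 in wild type. The groups were far apart, array 2 stood with the others, and the fall was 1.46 with array 2 and 1.40 without it (SE 0.09, limma adjusted p = 3.56e-13, 2.64-fold). Gbp2b read 6.19, 6.15, 6.09 and 6.26 against 7.54, 7.51, 7.56 and 7.70, a fall of 1.41 and 1.40. Gbp3 read 6.26, 6.95, 6.11 and 6.71 against 7.87, 7.75, 7.39 and 7.85, a fall of 1.21 and 1.36. These Gbp genes are close paralogs, so their probe sets may share signal. Psmb8, which replaces a catalytic proteasome subunit under interferon, read 6.37, 5.81, 6.03 and 6.11 against 7.07, 7.24, 7.43 and 7.28, and fell by 1.17 and 1.08 (limma adjusted p = 0.000803 without array 2).

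Further members, named after their values were seen, included a factor and class I genes. Irf1, a transcription factor of the interferon response that lies on chromosome 11, read 7.44, 7.67, 7.53 and 7.26 against 8.16, 8.27, 8.34 and 8.24, a fall of 0.77 and 0.84. B2m, the shared light chain of class I molecules, read 6.94, 6.13, 6.93 and 6.91 against 8.08, 8.10, 7.67 and 7.98, a fall of 1.23 and 1.03. The class I heavy chains H2-K1 and H2-D1, themselves near-identical in sequence, fell by 0.42 and 0.43 and by 0.40 and 0.37. Irgm1, an immunity-related GTPase also on chromosome 11, fell by 0.95 and 0.79, and Isg15, a ubiquitin-like protein, by 0.73 and 0.58. In all 10 genes the unrecombined and wild-type arrays did not overlap, as on 296 of all 317 probe sets called in both fits. For Gbp2, Gbp2b, Gbp3 and Psmb8 the rule that named them required this.

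Other members did not pass in both fits. Igtp, a GTPase, differed by 0.10 and −0.34 and passed without array 2 only. Array 2 read 6.76, above the other unrecombined Hex arrays. Psmb10 stood at −0.83 and −0.59 (limma adjusted p = 0.0892 and 0.426), and Psmb9 at −0.25 and −0.24. Tap1, a peptide transporter, stood at −0.12 and −0.05 (interval −0.20 to 0.10 without array 2).

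**Figure D5:**
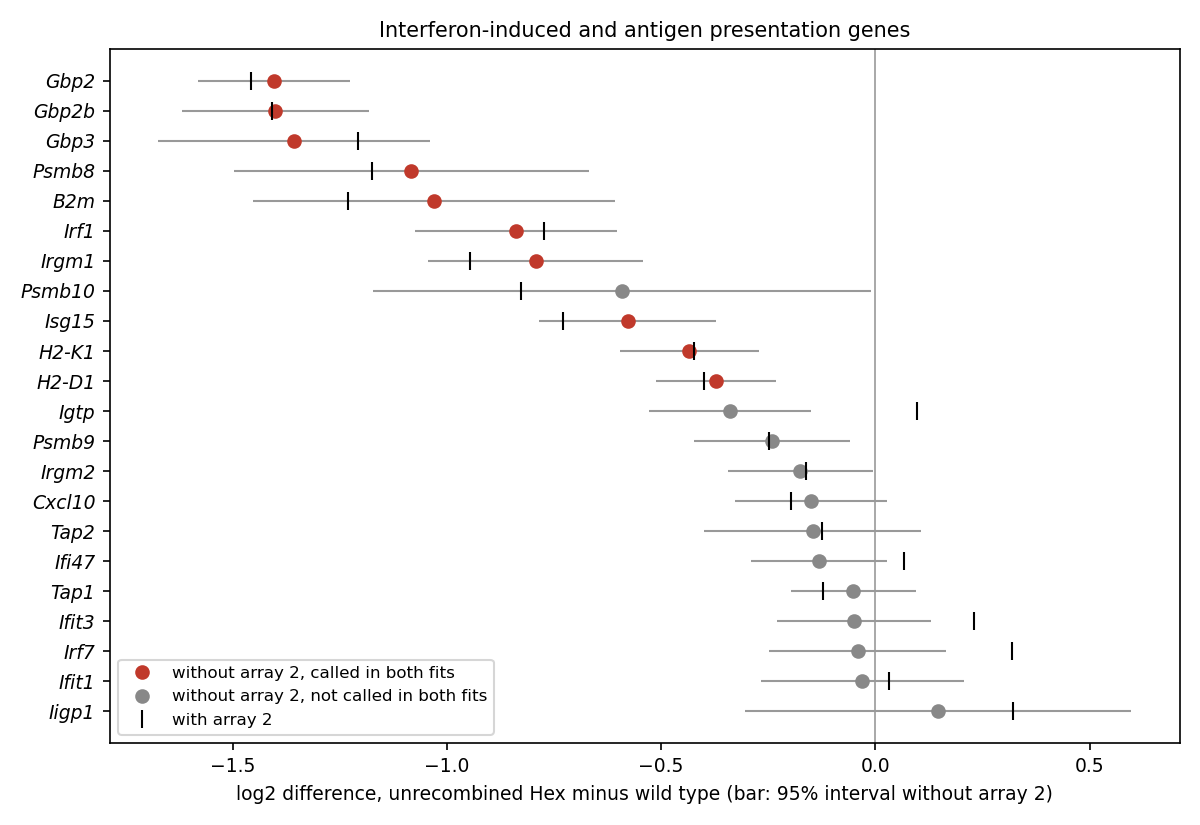
Log2 difference from wild type without array 2 (dots, with 95% intervals) and with array 2 (ticks) on the horizontal axis for the 22 measured interferon and antigen presentation genes. The 10 genes called in both fits (red) lie between −1.40 and −0.37 without array 2.

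Few pluripotency genes were called. Of 15 core ES cell identity genes limma called 0 in both fits (unadjusted p under 0.05 in 3 with array 2 and 4 without it). Pou5f1 read 11.84, 9.78, 12.08 and 11.78 against 11.38, 11.41, 11.64 and 11.51, so that 3 arrays lay above the wild-type range and array 2 far below it. Its difference was −0.12 with array 2 and 0.42 without it (interval −0.24 to 1.08). Sox2 differed by −0.09 and −0.08. Fgf4, the FGF ligand of ES cells, read 10.49, 9.02, 10.51 and 10.33 against 9.77, 9.99, 10.15 and 9.87, and was higher by 0.496 without array 2 (limma adjusted p = 0.00194) but by 0.14 with it (0.607).

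Of 13 naive pluripotency factors 2 fell and 1 rose, against 2.5% and 0.436% of all genes. Nanog, which guards self-renewal, read 10.78, 9.90, 10.69 and 10.83 against 11.63, 11.57, 11.31 and 11.57. It fell by 0.97 with array 2 and by 0.75 without it (SE 0.12, limma adjusted p = 0.000127), with no overlap, and a dimmer Nanog probe set stood at −0.39 and −0.44 without a call. Tfcp2l1, a LIF-responsive factor, fell by 0.64 and 0.31. Its other probe set, at 0.28 and −0.05, did not pass, and its call was lost without wild-type array 4. Gbx2, a homeobox gene that LIF signalling also supports, read 9.92, 8.36, 9.90 and 9.88 against 8.64, 8.58, 8.60 and 8.74. It rose by 0.88 with array 2 (limma adjusted p = 0.0104), which read below all wild-type arrays, and by 1.26 without it (2.4-fold, adjusted p = 1.86e-07). Klf4 and Zfp42, at −0.83 and −0.45 and at −0.75 and −0.40, passed with array 2 only.

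Germ cell precursor genes included 3 falls and 0 rises among 9 measured members, against 2.5% and 0.436% of all genes. The list was chosen with earlier results of these data known, so this share is a description and no test. Dppa3 (Stella), a maternal and germ cell protein, read 6.74, 5.36, 6.45 and 6.74 against 8.55, 8.63, 8.24 and 8.54. It fell by 2.17 with array 2 and by 1.85 without it (SE 0.13, limma adjusted p = 3.2e-12, 3.59-fold). Kit, the stem cell factor receptor, read 7.19, 6.37, 7.49 and 7.26 against 8.24, 8.02, 7.96 and 8.23, a fall of 1.04 and 0.80. Tfap2c, a germ cell transcription factor, fell by 0.75 and 0.54. None of the 3 genes overlapped between the groups. In the DNA methylation list of 13 genes 1 fell, Rhox5, which read 8.39, 6.94, 8.41 and 8.29 against 9.13, 9.31, 9.11 and 9.22, and 0 rose. Dnmt3a, a de novo methyltransferase named after its values were seen, passed without array 2 only (0.69, limma adjusted p = 0.00132; 0.34 with it).

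Epithelial and contractile genes were among the further falls. Of 15 simple epithelial keratin and junction genes 2 fell and 0 rose, against 2.5% and 0.436% of all genes, with a median of −0.40 and −0.23. Krt19, a keratin on chromosome 11, read 5.86, 6.60, 5.80 and 5.44 against 6.81, 7.13, 7.79 and 7.04, and fell by 1.27 and 1.495 (limma adjusted p = 0.00176 without array 2). Dsp, the desmosomal linker desmoplakin, read 7.18, 7.01, 7.38 and 7.28 against 8.08, 7.99, 8.25 and 8.34, a fall of 0.96 and 0.89. The groups did not overlap in either gene, which the rule that named Krt19 required, but dimmer second probe sets of both did not pass. Krt8 and Krt18, the paired keratins of simple epithelia, stood at −0.66 and −0.40 and at −0.40 and −0.55, with Krt8 passing with array 2 only.

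Of 13 smooth muscle cytoskeleton genes 3 fell and 0 rose, against 2.5% and 0.436% of all genes, with a median of −0.30 and −0.16. Tagln, the actin binder transgelin, read 7.55, 6.98, 7.58 and 7.56 against 8.11, 8.26, 8.67 and 8.39, a fall of 0.94 and 0.80. Acta2, smooth muscle actin, read 5.74, 5.53, 5.83 and 6.35 against 6.85, 6.58, 6.65 and 6.61, a fall of 0.81 and 0.70. Tpm1, a tropomyosin, fell by 0.498 and 0.41. S100a6, a calcium-binding protein of the fibroblast list, read 7.57, 6.05, 7.79 and 7.66 against 8.73, 9.16, 8.84 and 8.67, a fall of 1.58 and 1.18. Of 19 fibroblast and feeder genes Timp3, a metalloproteinase inhibitor, was the other to fall (0.37 and 0.44), a call lost without wild-type array 1 or 2. The fibroblast list's median was 0.12 and 0.01, and 0 of its genes rose.

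Other large falls came from scattered functions. Plac8, first described in placenta, read 7.06, 7.27, 7.10 and 6.99 against 8.10, 8.32, 8.58 and 8.33, a fall of 1.23 and 1.28. Erbb3, a receptor of the EGF receptor family, read 7.58, 7.18, 7.52 and 7.53 against 8.65, 8.60, 8.64 and 8.70, a fall of 1.19 and 1.10, while its dimmer second probe set stood at 0.23 and 0.10. Coch, a secreted protein of the inner ear, fell by 1.36 and 1.15, and Calml4, a calmodulin-like protein, by 1.48 and 1.10. In these 4 genes the groups did not overlap, which the rule that named them required.

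Rises called in both fits were fewer and smaller than falls, under a rule that dropped more of the rises. Rpl39l, a paralog of the ribosomal protein Rpl39 best known from testis, read 7.94, 7.71, 8.01 and 7.98 against 7.06, 7.15, 6.99 and 6.90. It rose by 0.88 with array 2 and by 0.95 without it (SE 0.11, limma adjusted p = 3.2e-07, 1.93-fold). It was the 1 rise among 22 measured cytosolic ribosomal protein genes, of which 0 fell, against 0.436% and 2.5% of all genes. Rreb1, a zinc finger factor downstream of Ras, read 5.61, 5.19, 5.38 and 5.42 against 4.83, 4.75, 4.53 and 4.70, a rise of 0.70 and 0.77. Vegfc, a growth factor for lymphatic vessels, rose by 0.65 and 0.80, Klhl9, a ubiquitin ligase adaptor, by 0.64 and 0.73, and Pgm1, a phosphoglucomutase, by 0.40 and 0.45. Foxp1, a forkhead factor encoded 14 measured genes from Rosa26, read 8.23, 7.74, 8.23 and 8.15 against 7.66, 7.69, 7.65 and 7.64, a rise of 0.43 and 0.55 without overlap. Its other probe set passed without array 2 only (0.21, then 0.53). Satb1, a chromatin organiser, rose by 0.39 and 0.42, 1700097N02Rik by 0.59 and 0.63, Yju2, a splicing factor, by 0.496 and 0.54, and Dok2, an adaptor protein, by 0.47 and 0.48.

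Of 20 neural genes 4 rose and 0 fell, against 0.436% and 2.5% of all genes: Gbx2, Dll1, Neurod1 and Ncam1. Dll1, a Notch ligand, read 7.37, 7.14, 7.41 and 7.40 against 6.93, 6.72, 6.80 and 6.80, a rise of 0.52 and 0.58 (limma adjusted p = 2.47e-07 without array 2). Neurod1, a proneural factor, read 5.14, 5.31, 5.18 and 5.14 against 4.67, 4.66, 4.47 and 4.68, a rise of 0.57 and 0.53 at levels below the array median. The groups did not overlap in either gene, which the rule for the largest rises required. Ncam1, a neural adhesion molecule, rose by 0.38 and 0.39. Second probe sets of Dll1 (−0.01 and −0.09) and Ncam1 (0.03 and 0.06) did not pass. The list's median was 0.06 and 0.03. The summed linear intensity of neural markers was 1843 to 2070 on arrays 1, 3 and 4, 804.2 on array 2 and 2096 to 2315 in wild type. Further rises were those of Tenm4, a teneurin (0.51 and 0.55), and Nfib, a nuclear factor I gene (0.43 and 0.44). The Nfib call was lost without wild-type array 1 or 4 and after quantile normalisation, its other probe set did not pass, and a brighter Tenm4 probe set stood at 0.32 and −0.06 without a call.

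Signalling lists held few calls, set against 2.5% of all genes that fell and 0.436% that rose. Egr1, an immediate-early factor, read 8.26, 8.26, 7.86 and 7.97 against 8.86, 8.52, 8.51 and 8.90 and fell by 0.61 and 0.67, the 1 fall among 18 immediate-early genes, of which 0 rose. A dimmer Egr1 probe set stood at 0.34 and 0.08 without a call. Fos, at −1.05 and −0.83, passed with array 2 only. Of 14 FGF pathway genes 1 fell, the receptor Fgfr2 (0.41 and 0.28), and 0 rose, while its 2 other probe sets were not called in both fits. In the Nodal and activin list limma called 0 of 20 in both fits (unadjusted p under 0.05 in 3 with array 2 and 5 without it), and Inhbb, an activin subunit, passed without array 2 only (0.48, limma adjusted p = 0.000504). In the BMP list limma called 0 of 17 (7 and 3 at an unadjusted p under 0.05). Its target Id3 (−0.89 and −0.66) and transducer Smad1 (−0.60 and −0.35) passed with array 2 only. Limma also called 0 of 35 Wnt genes (8 and 5 at an unadjusted p under 0.05), 0 of 12 LIF and STAT3 genes (3 and 2), and 0 of 4 measured genes of the Groucho list, which are Tle1, Tle3, Tle4 and Hhex (2 and 1). Of these Tle1 (−0.64 and −0.31) passed with array 2 only.

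Lineage lists beyond these held few calls, set against 2.5% of all genes that fell and 0.436% that rose. Of 27 endoderm and 18 basement membrane genes 1 fell, Sparc, a secreted matrix protein on chromosome 11 that stands in both lists (0.81 and 0.62), and 0 rose. Of 19 blood and endothelium genes 2 fell, Kit and Tek, the angiopoietin receptor (0.59 and 0.57), and of 14 trophoblast genes 2, Krt19 and Tfap2c. Limma called 0 in both fits of 12 anterior endoderm genes (unadjusted p under 0.05 in 0 with array 2 and 2 without it), 22 primitive streak and mesoderm genes (4 and 0), 9 p53 targets (4 and 0) and 22 imprinted genes (6 and 6).

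Metabolic and stress lists also held 1 or 2 calls each, set against 2.5% of all genes that fell and 0.436% that rose. Abca1, the cholesterol exporter, read 6.61, 5.93, 6.55 and 6.71 against 5.92, 5.73, 5.74 and 6.11, and rose by 0.58 and 0.75. That call was lost without any 1 of unrecombined Hex arrays 1, 3 and 4 or wild-type arrays 1, 2 and 3 and after quantile normalisation, and its other probe set stood at 0.25 and 0.08. Msmo1, a sterol oxidase, fell by 0.64 and 0.38, the other call among 20 cholesterol genes, whose median was −0.33 and −0.26. Of 21 hypoxia and glycolysis genes 2 fell, Ak4, a mitochondrial adenylate kinase (0.96 and 0.77), and Pfkp, a phosphofructokinase (1.21 and 0.76), and other probe sets of both were not called in both fits. Of 26 heat shock genes 2 fell, Dnajc7 and the inducible chaperone Hspa1b (0.64 and 0.51). Of 13 oestrogen-responsive genes 2 fell, Xbp1, an unfolded protein response factor on chromosome 11 (1.30 and 0.60), and Prss23, a serine protease (0.44 and 0.47). The Xbp1 call was lost without wild-type array 3. Of 29 cell cycle genes 1 fell, Cdc6, a replication licensing factor on chromosome 11 (0.89 and 0.43). Of 29 adhesion genes 1 rose, Ncam1, and 0 fell.

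A direct comparison with the unrecombined HexERTVP2 clones without 4-OHT used no wild-type array and set the Hex arrays against the mean of both clones. Of 12422 probe sets 517 (4.16%) passed with array 2, 165 higher (1.33%) and 352 lower (2.83%). Without it 990 (7.97%) passed, 619 higher (4.98%) and 371 lower (2.99%). After centring of all arrays on their medians, the fit with array 2 called 229 higher and 243 lower. Leaving out array 3 of the Hex line gave 890, and when only these arrays were fitted 56 passed with array 2. Both fits called 325 (2.62%), 119 higher (0.958%) and 206 lower (1.66%). With 1 probe set per gene these were 233 genes (2.82%), 83 higher (1.01%) and 150 lower (1.82%).

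Interferon genes were also lower than the mean of the HexERTVP2 clones. Of 22 members 14 were called lower and 0 higher, against 1.82% and 1.01% of all genes. Gbp2 read 8.50 to 8.77 in clone 1 and 6.86 to 7.11 in clone 2, both above all 4 unrecombined Hex arrays, with a direct difference of −1.30 and −1.24 (SE 0.08, limma adjusted p = 4.83e-13 without array 2). Gbp3, at 6.33 to 6.94 in clone 2, overlapped the unrecombined Hex arrays. In Gbp2 and Gbp3 clone 2 lay below all 4 wild-type arrays, so low levels of them were not particular to unrecombined Hex. B2m read 7.90 to 8.64 in clone 1 and 7.43 to 8.02 in clone 2, and unrecombined Hex differed from them by −1.23 and −1.03. Unrecombined Hex was lower than both clones' mean in Calcoco2 (−1.43 and −1.24, interval −1.48 to −1.01 without array 2), Dynll2 (−2.58 and −2.26), Acta2 (−1.42 and −1.31), S100a6 (−1.32 and −0.91) and Krt19 (−1.12 and −1.35). Krt8 and Krt18, uncalled against wild type, were called lower here (−0.90 and −0.65 for Krt8, −0.68 and −0.82 for Krt18). Higher here as against wild type were Gbx2 (0.74 and 1.12), Rreb1 (0.77 and 0.84), Abca1 (0.95 and 1.12), Satb1 (0.499 and 0.52) and Foxp1 (0.42 and 0.53, limma adjusted p = 1.87e-09 without array 2).

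Some other falls from wild type were not called against the HexERTVP2 clones, while that of Dppa3 passed here too without array 2. Erbb3 differed from them by −0.19 and −0.10 (interval −0.34 to 0.13 without array 2, as for the genes after it), Nanog by −0.38 and −0.16 (−0.38 to 0.06), Tfap2c by −0.24 and −0.04 (−0.20 to 0.13) and Egr1 by −0.07 and −0.12 (−0.32 to 0.07). For Ak4 the difference was −0.13 and 0.06 (−0.13 to 0.25), with 7.92 to 8.21 in clone 1 and 6.84 to 7.26 in clone 2. Rhox5 read 8.65 to 8.94 in clone 1 and 7.28 to 7.56 in clone 2, so the clones themselves did not overlap in these 2 genes. Dppa3 read 7.49 to 7.86 in clone 1 and 6.73 to 7.13 in clone 2, with a direct difference of −0.996 and −0.68 (SE 0.11, limma adjusted p = 0.000126 without array 2). Rpl39l, a rise from wild type, read 7.44 to 7.68 in clone 1 and 7.75 to 7.87 in clone 2. Its difference from the clones, 0.22 and 0.29, did not pass (limma adjusted p = 0.0605 without array 2).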

How the data were processed

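RNA of 44 samples was hybridised to Affymetrix MG-U74Av2 arrays, and 8 arrays enter the main comparison. The authors deposited 1 linear intensity per probe set and array, made with RMA per the submitters' processing notes, and its log2 was taken here. RMA relates arrays to each other, so intensities are relative, and which arrays were normalised together is not given in the sources used here. Scanner files, detection calls and scan batches were not used here, so low values are not shown to exceed background. Of 12488 probe sets, 66 control sets were left out. Through the platform annotation 10833 probe sets had 1 gene symbol, 396 several and 1193 none, and 10817 matched the RefSeq GRCm38.p6 gene table, with 0 symbols changed. A gene stands for its probe set with the highest mean level over 40 arrays.

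limma 3.58.1 (R 4.3.3) fitted 11 group means over the 40 arrays with a group, with 29 residual degrees of freedom, and again without array 2 of unrecombined Hex (28). Tests were two-sided and p-values Benjamini-Hochberg adjusted over 12422 probe sets, with a threshold of 0.05. The fit was tried on simulated arrays with known changes and independent noise. None of those arrays was compressed, so the trial does not bear on the effect of array 2. In 4 arrays the title contradicts its own array code, and they entered no comparison.

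Named genes are Hhex, Tle4, Nodal and Gt(ROSA)26Sor, the 15 largest rises and 15 largest falls called in both fits without overlap of arrays, and up to 4 called members of each of 32 gene lists (otherwise up to 2 as values). Members and lists were chosen with earlier results of these data known. Alternatives were array centring, quantile normalisation, a level filter, trend and robust eBayes, array weights, the compared groups alone, a replicate block, a β-actin covariate, a size threshold and leaving out each array.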

Additional observations from a re-analysis of the deposited data

Results flagged for a closer look

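In 29 of 152 groups of 4 arrays tested over the named genes, 1 array lay far from the other 3 by Dixon's criterion, which chance meets in about 1 in 20 groups. Array 2 of unrecombined Hex was the distant array in 27 of these. It was the lowest in transcription factors and ES cell genes: Pou5f1 (9.78), Nanog (9.90), Gbx2 (8.36), Tfcp2l1 (7.63), Tfap2c (8.04), Foxp1 (7.74), Mesp2 (7.26), Xbp1 (4.79) and Rhox5 (6.94). The same held for the signalling genes Nodal (7.15), Fgf4 (9.02), Lefty1 (7.84), Smad1 (6.44), Tle1 (5.37), Dll1 (7.14), Vegfc (6.48) and Erbb3 (7.18). It was also lowest in Dnajc7 (7.39), S100a6 (6.05), Calml4 (5.83), Pgm1 (8.21), Tagln (6.98), Ccng1 (6.21), Ak4 (6.88), Mest (6.60) and Cdc6 (7.39). In Lrp6 (8.51) it was the highest. Array 3 of wild type was the lowest of its group in Neurod1 (4.47) and Tfap2c (9.36).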

How the results depend on the processing

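For unrecombined Hex against wild type, 599 probe sets passed with all arrays, 1543 with array weights, 14 with the groups alone and 372 at an absolute difference of at least 0.5. Leaving out 1 array gave 378 to 1595. Without array 2 (451), the counts were 1573, 797, 211 and, with a β-actin covariate, 903, and leaving out a further array gave 291 to 393. Against the HexERTVP2 clones (517), the counts were 2017, 56 and 217, and 364 to 990 without 1 array. The chromosome 11 median of −0.31 was −0.12 over all genes, −0.22 after quantile normalisation and −0.38 to −0.18 without 1 array.

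None of the 57 named genes called with all arrays changed sign under the 15 alternatives tried, and other called probe sets were not followed one by one. Among these 57, 783 of 855 values kept their call, and 48 genes lost it somewhere, each of them with the groups alone. The 19 uncalled named genes gained a call in 18 of 285 values, among them Nodal with array weights (0.3665). Signs turned in some of them. With array weights the difference was 0.0897 in Hhex, 0.23 in Tle4, 0.44 in Pou5f1, 0.44 in Pim3 and 0.30 in Lefty1. With the actin covariate it was 0.16 in Pou5f1, 0.17 in Pim3 and 0.12 in Lefty1, and with quantile normalisation 0.0816 in Pou5f1, 0.093 in Pim3 and 0.0536 in Lrp6. Leaving out 1 array gave −0.40 to 0.0609 in Hhex, −0.36 to 0.16 in Tle4, −0.0446 to 0.34 in Nodal, −0.0031 to 0.50 in Fgf4, −0.35 to 0.42 in Pou5f1, −0.21 to 0.36 in Pim3, −0.24 to 0.0125 in Hesx1, −0.26 to 0.22 in Lefty1, −0.0846 to 0.39 in Tcf15, −0.0505 to 0.28 in Phlda3 and −0.15 to 0.51 in Mest. The cause was not tested.

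A replicate block gave 637 calls (572 shared with the 599), 536 without array 2 and 442 against the HexERTVP2 clones. Same-numbered arrays deviated with correlations of −0.21, −2e-04, 0.40 and 0.15, and arrays of unlike number with −0.29 to 0.30. The deviations were taken from group means that include array 2, so they cannot tell whether the numbers pair samples. The number of arrays limits the precision, and signal over background is unknown.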
